A study of Nicotiana tabacum with 2 samples.

Results

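Accessible chromatin regions on unplaced scaffolds of the genome were described in tobacco callus cultured with 0.5 mg/L or 0.1 mg/L naphthaleneacetic acid (NAA), a synthetic auxin. The regions had been found by ATAC-seq, in which the Tn5 transposase cuts open DNA and adds sequencing adapters to it, and each concentration had 1 library and 1 list of regions. Members were all regions on sequences named Niben261Scf, the scaffolds of the Nicotiana benthamiana assembly Niben261 that carry no chromosome name. They numbered 577 of the 31830 regions of the 0.5 mg/L list and 980 of the 39523 regions of the 0.1 mg/L list, together 1557 of 71353. The remaining regions lay on 19 chromosomes. Both libraries came from pooled explants, which the study describes as cotyledons of N. benthamiana on medium that also held the cytokinin 6-benzyladenine, whereas the labels name Nicotiana tabacum. The labels give 3 weeks of culture for the 0.5 mg/L library and 2 weeks for the 0.1 mg/L library, while the methods describe a single culture time, so that NAA concentration, labelled culture time and library cannot be told apart. The labels also mention formaldehyde fixation and sonication beside the Tn5 reaction. There were no replicates, and no test was made between the concentrations.

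Unplaced scaffolds are stretches of an assembly that could not be anchored to a chromosome. In plant genomes they commonly hold repeats, tandem arrays such as ribosomal DNA and copies of organelle DNA, because such sequences are hard to order, and fragments from many copies in the nucleus or from organelles can then pile up on a single assembled copy. Accessible regions in plants are otherwise short, nucleosome-poor stretches, often at promoters and distal regulatory elements. What sequence these scaffolds hold, and which genes they carry, was not analysed here.

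Scaffold regions made up 1.81% of the 0.5 mg/L list (95% exact interval 1.67 to 1.97%) and 2.48% of the 0.1 mg/L list (2.33 to 2.64%). The number at 0.5 mg/L was 0.589 times that at 0.1 mg/L on scaffolds and 0.811 times on chromosomes. The scaffold ratio was below the chromosome ratio at each q-value limit and width limit tried. At q-values under 1e-05, for example, scaffolds held 317 regions at 0.5 mg/L, against 397 at 0.1 mg/L, which makes 0.798 on scaffolds and 1.26 on chromosomes. With equal numbers of the strongest regions in both lists the scaffold ratio was 0.745. Scaffold regions covered 162 kb at 0.5 mg/L and 389 kb at 0.1 mg/L, a ratio of 0.418, against 0.594 for the bases covered on chromosomes. The deeper library was that of 0.1 mg/L, where the genome-wide background pileup, worked back from the deposited values, was 0.747 fragments, against 0.172 fragments at 0.5 mg/L. The part of depth in these ratios was not tested.

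The members were spread thinly over many scaffolds. At least 1 region lay on 490 scaffolds in the 0.5 mg/L list and on 788 scaffolds in the 0.1 mg/L list, which gave a mean of 1.18 and 1.24 regions per occupied scaffold. A single region was found on 421 scaffolds (85.9%) at 0.5 mg/L and on 652 scaffolds (82.7%) at 0.1 mg/L. Together the lists touched 936 scaffolds, of which 342 held a region in both lists, 148 only in the 0.5 mg/L list and 446 only in the 0.1 mg/L list. The scaffolds in both lists were thus 69.8% of those at 0.5 mg/L and 43.4% of those at 0.1 mg/L. On 314 of these 342 scaffolds at least 1 region of a list overlapped a region of the other, and on 28 scaffolds no region overlapped. The number of regions was equal in both lists on 250 scaffolds, higher at 0.5 mg/L on 34 and higher at 0.1 mg/L on 58. Regions on scaffolds touched by 1 list only had a lower median summit pileup, 5 fragments at 0.5 mg/L and 7 fragments at 0.1 mg/L, than regions on scaffolds touched by both lists, 7 fragments at 0.5 mg/L and 13 fragments at 0.1 mg/L.

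**Figure D1:**
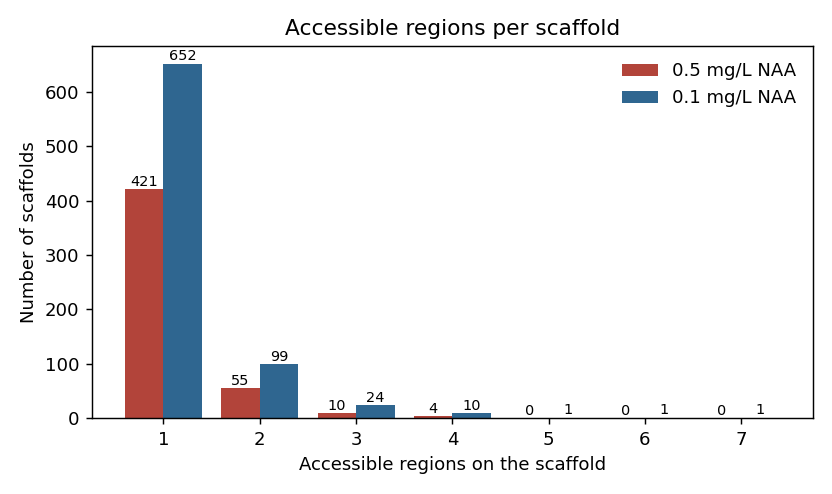
Number of scaffolds (vertical axis) by the number of accessible regions on the scaffold (horizontal axis), with 0.5 mg/L NAA at the left and 0.1 mg/L NAA at the right of each pair of bars. Most scaffolds held 1 region (421 at 0.5 mg/L and 652 at 0.1 mg/L), and more than 4 regions occurred on 3 scaffolds of the 0.1 mg/L list only.

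The scaffolds with most regions held 4 at 0.5 mg/L and up to 7 at 0.1 mg/L. For each list 5 were named, with ties taken in order of name, since 10 scaffolds tied at 3 regions for the last place at 0.5 mg/L and 10 tied at 4 regions for the last 2 places at 0.1 mg/L. Niben261Scf02411 was among the first of both, with 4 regions at 0.5 mg/L, against 7 at 0.1 mg/L. Its strongest region lay at 28541 to 28742 at 0.5 mg/L (summit pileup 26, fold 14.2 over the local background) and at 28506 to 28732 at 0.1 mg/L (summit pileup 31, fold 5.65). Fold here is the deposited ratio of summit pileup to local background. The fold was higher at 0.5 mg/L although the pileup was lower, since the local background was 0.899 fragments at 0.5 mg/L and 4.67 fragments at 0.1 mg/L. Niben261Scf00305 held 3 regions at 0.5 mg/L, against 6 at 0.1 mg/L, and a shared pair was the strongest on it in both lists, with a summit pileup of 33 at 0.5 mg/L (78640 to 79177) and 37 at 0.1 mg/L (78712 to 79188). Niben261Scf05252 had 4 regions at 0.5 mg/L within 2122 to 6418, and each of them overlapped one of the 3 regions at 0.1 mg/L. Niben261Scf02397 had 5 regions at 0.1 mg/L, from 7231 to 48192, and none of them had a partner. Niben261Scf02490 and Niben261Scf02940 had 4 regions each at 0.5 mg/L, with 2 shared on Niben261Scf02490 and 1 shared on Niben261Scf02940. Niben261Scf01099 and Niben261Scf01055 had 4 regions each at 0.1 mg/L, with 1 shared on each. Where a scaffold held more than 1 region, the gap to the next one had a median of 2948 bp at 0.5 mg/L (87 gaps, 158 to 88397 bp) and 5497 bp at 0.1 mg/L (192 gaps, 215 to 164465 bp).

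Most scaffold regions began within 10 kb of the scaffold start. The first base of a region was at a median position of 3225 at 0.5 mg/L (quartiles 982 and 11561) and 4381 at 0.1 mg/L (quartiles 994 and 12828). Within 100 bp of the start began 29 regions (5.03%) at 0.5 mg/L, against 41 (4.18%) at 0.1 mg/L. Within 1 kb began 147 (25.5%) at 0.5 mg/L, against 247 (25.2%) at 0.1 mg/L, and within 10 kb 408 (70.7%) at 0.5 mg/L, against 672 (68.6%) at 0.1 mg/L. The lists thus had nearly equal shares close to the start. On the chromosomes, which have 19 starts in all, 1 region at 0.5 mg/L and 4 regions at 0.1 mg/L lay within 10 kb. With so few starts there, this contrast does not show that scaffold regions favour starts. Scaffold lengths were not used here, so each scaffold is known to be at least as long as its last region's end. That end had a median of 4157 bp over the 936 scaffolds, was under 1 kb on 152 of them and over 50 kb on 32, and reached 184299 bp at most.

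**Figure D2:**
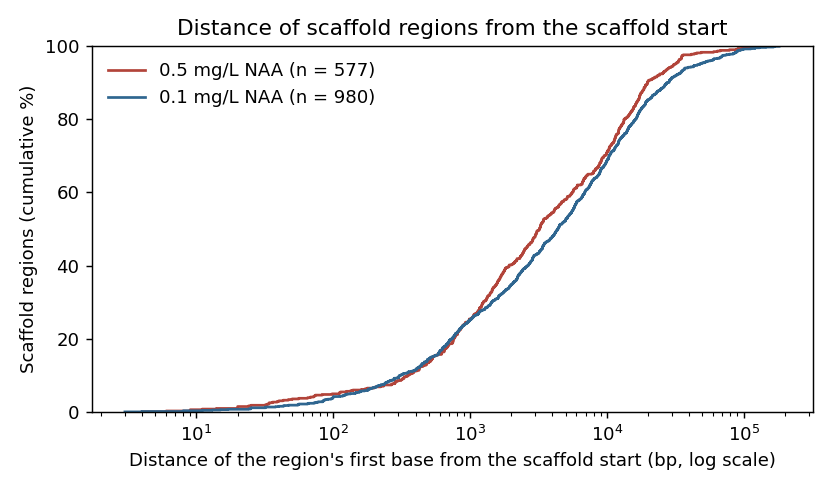
Cumulative percent of scaffold regions (vertical axis) by the distance of their first base from the scaffold start in bp (horizontal axis, log scale), for 577 regions at 0.5 mg/L NAA and 980 regions at 0.1 mg/L NAA. The curves meet near 25% at 1 kb and reach 70.7% at 0.5 mg/L and 68.6% at 0.1 mg/L by 10 kb.

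Regions next to a scaffold start were often shared between the lists, where a shared region is one with 1 bp or more in common with the other list. Of those starting within 100 bp, 24 of 29 at 0.5 mg/L (82.8%, 64.2 to 94.2%) and 25 of 41 at 0.1 mg/L (61.0%, 44.5 to 75.8%) were shared. Of those starting beyond 10 kb, 103 of 169 at 0.5 mg/L (60.9%, 53.2 to 68.3%) and 99 of 308 at 0.1 mg/L (32.1%, 27.0 to 37.7%) were shared. Between 1 and 10 kb the share was 55.9% for 0.5 mg/L, against 32.0% for 0.1 mg/L, so the highest shares of both lists were at the very start. Over all regions of the 0.5 mg/L list, 50.4% were shared, against 40.3% over all regions of the 0.1 mg/L list. In the 0.5 mg/L list the intervals for starts within 100 bp and beyond 10 kb overlap. Regions within 100 bp include the 3 of highest background named below. The part of strength in their sharing was not tested.

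Scaffold regions were somewhat wider than chromosome regions, past the threshold in the 0.1 mg/L list. Their median width was 235 bp at 0.5 mg/L (quartiles 184 and 336 bp), against 232 bp on chromosomes (184 and 311 bp), and 336 bp at 0.1 mg/L (258 and 474 bp), against 317 bp on chromosomes (252 and 423 bp). At or above the median width of the whole list were 51.1% of the scaffold and 50.2% of the chromosome regions at 0.5 mg/L (odds ratio 1.04, 0.877 to 1.23, two-sided Fisher's exact test, adjusted p = 0.67). In the 0.1 mg/L list these shares were 54.7% on scaffolds and 50.2% on chromosomes (odds ratio 1.20, 1.05 to 1.37, exact test, adjusted p = 0.0085). The p-values were adjusted over the 11 tests of scaffold against chromosome regions. They treat regions of 1 library as independent and say nothing of other libraries. Without the scaffold regions that start within 1 kb, the 0.1 mg/L difference was no longer past the threshold (52.7% against 50.2%, exact test, adjusted p = 0.25). The 0.5 mg/L difference in turn passed it at q-values under 1e-05 (56.5% against 49.9%, exact test, adjusted p = 0.028), with the minimum width of the 0.1 mg/L list in both lists (56.7% against 50.2%, adjusted p = 0.022) and without regions of a background of at least 2 times the genome-wide level (44.8% against 38.4%, adjusted p = 0.019). Very wide regions, of 800 bp or more, were 5 of 577 on scaffolds (0.867%) and 65 on chromosomes (0.208%) at 0.5 mg/L, and 46 of 980 on scaffolds (4.69%) and 730 on chromosomes (1.89%) at 0.1 mg/L.

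The widest scaffold regions were largely called in both lists. The first at 0.1 mg/L was on Niben261Scf03305 at 17916 to 19469 (1554 bp, summit pileup 99), where the 0.5 mg/L list had a region at 18004 to 19113 (1110 bp, summit pileup 24). The regions on Niben261Scf12068 (1293 bp at 0.5 mg/L, against 1309 bp at 0.1 mg/L) and Niben261Scf01039 (980 bp at 0.5 mg/L, against 1247 bp at 0.1 mg/L) were also among the 5 widest of both lists. The others of the 5 at 0.5 mg/L, on Niben261Scf02947 (886 bp) and Niben261Scf07264 (837 bp), and of the 5 at 0.1 mg/L, on Niben261Scf00267 (1420 bp) and Niben261Scf05730 (1349 bp), each overlapped a region of the other list.

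The summit, the point of highest pileup, lay near the middle of the region. Its median position as a share of the width was 0.50 on scaffolds and 0.467 on chromosomes at 0.5 mg/L, and 0.447 on scaffolds and 0.461 on chromosomes at 0.1 mg/L. In the outer 0.2 of the width at either end lay 15.9% of the scaffold and 17.6% of the chromosome summits at 0.5 mg/L (odds ratio 0.889, 0.702 to 1.12, two-sided Fisher's exact test, adjusted p = 0.35), and 24.6% of the scaffold and 26.2% of the chromosome summits at 0.1 mg/L (odds ratio 0.917, 0.788 to 1.06, exact test, adjusted p = 0.31). No difference was detectable at these numbers of regions. At q-values under 1e-05 the direction was the other way in both lists, and at 0.1 mg/L it passed the threshold, with 19.4% on scaffolds and 13.7% on chromosomes (exact test, adjusted p = 0.0027).

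The local background, the pileup that the caller expected around each region, set scaffold regions apart from chromosome regions most clearly. The caller takes the larger of the genome-wide level and the level in windows around the summit, which take in the region's own fragments. Exactly at the genome-wide level were 184 of 577 scaffold regions (31.9%, 28.1 to 35.9%) and 6.42% of the chromosome regions at 0.5 mg/L, and 527 of 980 scaffold regions (53.8%, 50.6 to 56.9%) and 17.8% of the chromosome regions at 0.1 mg/L. A background of at least 2 times the genome-wide level was found for 33.4% of the scaffold and 60.5% of the chromosome regions at 0.5 mg/L (odds ratio 0.329, 0.275 to 0.392, two-sided Fisher's exact test, adjusted p = 2.25e-37). At 0.1 mg/L the shares were 18.3% on scaffolds and 33.3% on chromosomes (odds ratio 0.448, 0.379 to 0.528, exact test, adjusted p = 2.19e-24). Most scaffold regions stood below 2 times the genome-wide level. Leaving out scaffold regions that start within 1 kb, 37.4% of those left in the 0.5 mg/L list reached 2 times, against 60.5% on chromosomes. For the 0.1 mg/L list this gave 21.4%, against 33.3% on chromosomes. If the widest window is 10 kb around the summit, an assumption about the caller's setting, many windows reached past the scaffold start. The median first base was 3225 at 0.5 mg/L and 4381 at 0.1 mg/L. Leaving out starts within 1 kb therefore keeps many such windows. Whether windows also reached past the far end is not known, since scaffold lengths were not used here. The part of scaffold ends in these differences was not tested. The lowest summit pileup at 0.5 mg/L was 3 fragments both on scaffolds, as on Niben261Scf04103 at 13310 to 13485, and on chromosomes.

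At the other end of the range the order was the opposite. A background of at least 10 times the genome-wide level occurred in 22 scaffold regions (3.81%) and 0.531% of the chromosome regions at 0.5 mg/L (odds ratio 7.42, adjusted p = 5.81e-11 by the exact test), and in 12 scaffold regions (1.22%) and 0.0804% of the chromosome regions at 0.1 mg/L (odds ratio 15.4, adjusted p = 2.1e-09). A background of at least 100 times occurred in 3 scaffold regions of each list (0.520% at 0.5 mg/L and 0.306% at 0.1 mg/L), on the same 3 scaffolds. On chromosomes it occurred in 13 regions (0.0416%) at 0.5 mg/L and 6 regions (0.0156%) at 0.1 mg/L. The highest chromosome background was 623 times the genome-wide level at 0.5 mg/L and 272 times at 0.1 mg/L. Niben261Scf12068 had a background of 106 fragments at 0.5 mg/L and 885 fragments at 0.1 mg/L, which was 616 and 1184 times the genome-wide level of its library. Niben261Scf15077 had 45.9 fragments at 0.5 mg/L and 305 fragments at 0.1 mg/L, and Niben261Scf10855 had 22.4 fragments at 0.5 mg/L and 195 fragments at 0.1 mg/L. All 3 regions began within 25 bp of the scaffold start. Taken over a window of 10 kb, which is an assumption about the caller's setting, and placed within the region alone, this background would make a mean pileup in the region of 70.7 to 76.8% of its summit at 0.5 mg/L and 83.1 to 88.8% at 0.1 mg/L. These values lie below the summits, so the background of these 3 scaffolds does not by itself show a high level outside the region, and how much of it lay there was not tested.

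**Figure D3:**
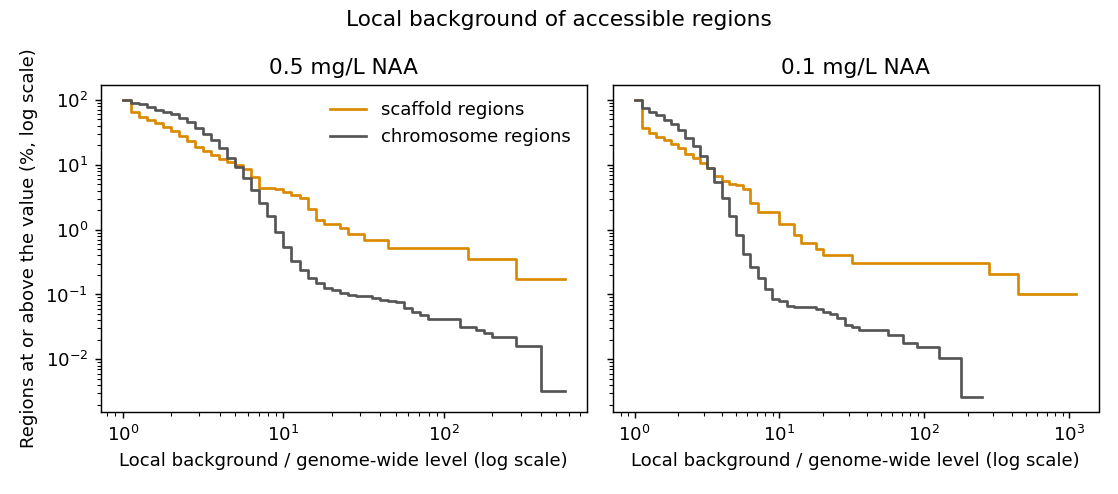
Percent of regions whose local background was at or above a multiple of the genome-wide level of the library (both axes on log scales), for scaffold and chromosome regions at 0.5 mg/L NAA (left) and 0.1 mg/L NAA (right). The scaffold curve runs below the chromosome curve at 2 times (33.4% against 60.5% at 0.5 mg/L, 18.3% against 33.3% at 0.1 mg/L) and above it at 10 times (3.81% against 0.531%, and 1.22% against 0.0804%).

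Fold differed between scaffold and chromosome regions at 0.1 mg/L. Its median was 5.97 on scaffolds and 5.87 on chromosomes at 0.5 mg/L, and 5.15 on scaffolds and 4.67 on chromosomes at 0.1 mg/L. At or above the median fold of the list were 52.9% of the scaffold and 49.95% of the chromosome regions at 0.5 mg/L (odds ratio 1.12, 0.949 to 1.33, two-sided Fisher's exact test, adjusted p = 0.25), and 58.6% and 49.8% at 0.1 mg/L (odds ratio 1.43, 1.25 to 1.63, exact test, adjusted p = 2.26e-07). The median summit pileup was equal at 0.5 mg/L, with 7 fragments on scaffolds and on chromosomes, and 9 fragments on scaffolds against 10 on chromosomes at 0.1 mg/L. A lower background under a lower summit thus stood beside the higher fold at 0.1 mg/L. The part of scaffold ends in this lower background was not tested.

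Scaffolds held a larger share of the strongest regions than of the lists. Ranked by −log10 q-value, 19 of the 100 strongest regions at 0.5 mg/L (19%, 11.8 to 28.1%) and 29 of the 100 strongest at 0.1 mg/L (29%, 20.4 to 38.9%) were on scaffolds. Among the 1000 strongest scaffolds held 4.60% at 0.5 mg/L, against 10.1% at 0.1 mg/L. These shares are a description without a test.

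A total of 8 of the 10 strongest scaffold regions at 0.5 mg/L, and all 10 at 0.1 mg/L, had a partner in the other list, and those without one were on Niben261Scf16955 and Niben261Scf02256. Besides the 3 scaffolds of very high background, 5 scaffolds were among the 10 strongest of both lists. On Niben261Scf03392 the region lay at 1931 to 2654 at 0.5 mg/L (summit pileup 382, fold 45.1) and at 1933 to 2559 at 0.1 mg/L (summit pileup 496, fold 35.5), with summits 1 bp apart. On Niben261Scf04993 it lay at 3928 to 4200 at 0.5 mg/L (summit pileup 159, fold 47.1) and at 3908 to 4203 at 0.1 mg/L (summit pileup 337, fold 41.9), with summits 4 bp apart. Niben261Scf03370 had a summit pileup of 170 at 0.5 mg/L, against 430 at 0.1 mg/L. Niben261Scf01039 had 135 at 0.5 mg/L, against 236 at 0.1 mg/L, and Niben261Scf03668 had 139 at 0.5 mg/L, against 291 at 0.1 mg/L. The summits of these last 3 were 14, 11 and 21 bp apart. The 10 strongest at 0.1 mg/L also held the regions on Niben261Scf03464, with a summit pileup of 70 at 0.5 mg/L, against 210 at 0.1 mg/L, and Niben261Scf01099, with 85 at 0.5 mg/L, against 175 at 0.1 mg/L. On each of the first 5 scaffolds the fold was higher at 0.5 mg/L while the summit pileup and the background were higher at 0.1 mg/L, the deeper library.

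Sharing between the lists differed between scaffolds and chromosomes in opposite directions. Of the 0.5 mg/L scaffold regions, 346 (60.0%, 55.8 to 64.0%) overlapped a 0.1 mg/L region, against 50.3% on chromosomes and 50.4% of the whole list (odds ratio 1.48, 1.25 to 1.76, two-sided Fisher's exact test, adjusted p = 1.2e-05). Of the 0.1 mg/L scaffold regions, 337 (34.4%, 31.4 to 37.5%) overlapped a 0.5 mg/L region, against 40.4% on chromosomes and 40.3% of the whole list (odds ratio 0.773, 0.674 to 0.884, exact test, adjusted p = 0.00032). Without a partner were 231 scaffold regions at 0.5 mg/L, against 643 at 0.1 mg/L. The numbers of shared regions were nearly equal because most overlaps join a single region of each list, as in 328 scaffold pairs. The ratio between the shares of the lists then follows from the list sizes. At 0.5 mg/L there were 0.589 times as many regions as at 0.1 mg/L on scaffolds and 0.811 times on chromosomes. The opposite directions are therefore not independent results.

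Split by the local background, the 0.1 mg/L scaffold regions did not show the lower sharing. Among regions at the genome-wide background, 24.3% of the scaffold and 15.7% of the chromosome regions of the 0.1 mg/L list were shared (adjusted p = 3.27e-06 by the exact test, a comparison chosen after the data were seen). Among regions above it, the shares were 46.1% on scaffolds (41.5 to 50.9%) and 45.8% on chromosomes. Within neither class was the scaffold share the lower one. In the 0.5 mg/L list the scaffold share was the higher one in both classes, with 40.8% against 26.2% at the genome-wide background and 69.0% against 51.9% above it. When summits had to lie within 100 bp of each other, the 0.1 mg/L difference was not past the threshold (26.9% on scaffolds against 29.0% on chromosomes, exact test, adjusted p = 0.25).

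Within each list sharing followed strength on scaffolds as it did on chromosomes. Each list was cut by −log10 q-value into 4 equal classes, class 4 being the strongest. In class 4 at 0.5 mg/L, 84.0% of the scaffold regions (77.8 to 89.0%) and 77.8% of the chromosome regions were shared, and in class 1 32.2% of the scaffold regions (24.0 to 41.3%) and 22.2% of the chromosome regions. In class 4 at 0.1 mg/L the shares were 74.3% on scaffolds (69.1 to 79.0%) and 81.6% on chromosomes, and in class 1 they were 6.48% on scaffolds (3.59 to 10.6%) and 9.29% on chromosomes. The gap between scaffolds and chromosomes at 0.1 mg/L was widest in class 3, with 25.3% on scaffolds (20.1 to 31.1%) against 48.0% on chromosomes.

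**Figure D4:**
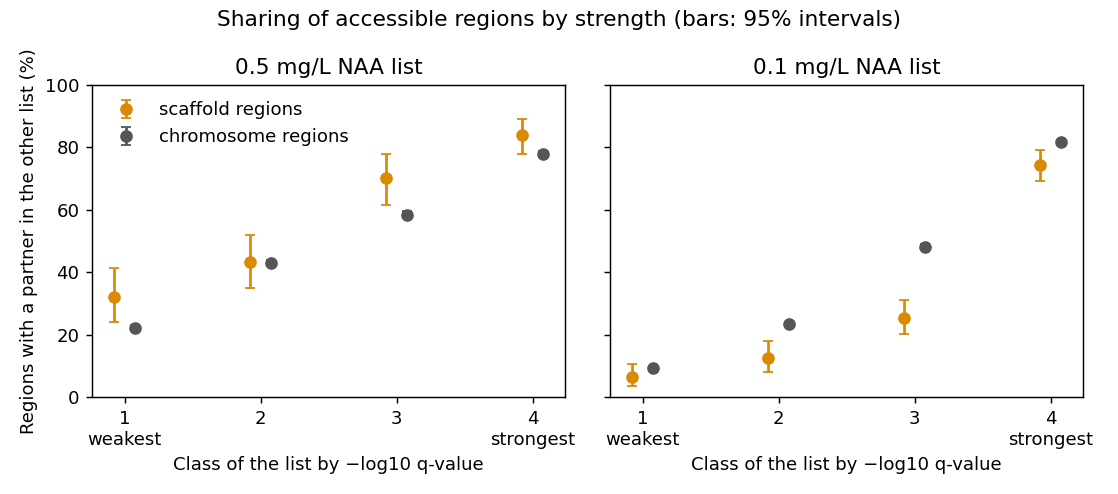
Percent of regions with a partner in the other list (vertical axis, bars are 95% exact intervals) in 4 equal classes of −log10 q-value, weakest to strongest (horizontal axis), for scaffold and chromosome regions of the 0.5 mg/L NAA list (left) and the 0.1 mg/L NAA list (right). The scaffold points lie at or above the chromosome points at 0.5 mg/L and below them at 0.1 mg/L, with the widest gap in class 3 at 0.1 mg/L (25.3% against 48.0%).

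Shared scaffold regions were wider and stronger than those without a partner, as were shared chromosome regions. At 0.5 mg/L the shared ones had a median width of 273 bp and a median summit pileup of 8 fragments, against 196 bp and 5 fragments in those without a partner. At 0.1 mg/L these medians were 434 bp and 15 fragments, against 308 bp and 8 fragments. On chromosomes the medians at 0.5 mg/L were 269 bp and 9 fragments in shared regions, against 204 bp and 6 fragments in those without a partner. At 0.1 mg/L they were 367 bp and 14 fragments, against 292 bp and 8 fragments. Shared chromosome regions of the 0.1 mg/L list had a median fold of 5.71, whereas the shared scaffold regions had a median fold of 7.44.

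A few scaffold regions without a partner were nevertheless strong. At 0.5 mg/L the first was on Niben261Scf16955 at 1029 to 1192 (summit pileup 272, fold 44.9), followed by Niben261Scf02256 at 22239 to 22416 (summit pileup 220, fold 49.7). Niben261Scf02841 held the next pair, at 3286 to 3469 (summit pileup 121) and 2112 to 2273 (summit pileup 52), and Niben261Scf03457 the fifth, at 1396 to 1575 (summit pileup 27). These 5 regions were 162 to 184 bp wide, below the 207 bp of the narrowest region at 0.1 mg/L. Neither Niben261Scf16955 nor Niben261Scf02256 nor Niben261Scf02841 held any 0.1 mg/L region. Regions narrower than 207 bp were 38.3% of the scaffold and 37.8% of the chromosome regions at 0.5 mg/L. A minimum width of 207 bp in both lists leaves out each of these 5 regions. Chromosome regions without a partner reached a summit pileup of 303 fragments at 0.5 mg/L, above that of Niben261Scf16955.

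At 0.1 mg/L the strongest scaffold region without a partner was on Niben261Scf12299 at 84 to 797 (summit pileup 257, background 22.6 fragments), a scaffold with no 0.5 mg/L region. The next ones had far lower summits, with 22 fragments on Niben261Scf01515 at 2300 to 2842 and on Niben261Scf03078 at 6509 to 6802, 35 on Niben261Scf07596 at 5817 to 6392 and 21 on Niben261Scf04806 at 354 to 713. Unlike those at 0.5 mg/L, these 5 regions were 294 to 714 bp wide. Chromosome regions without a partner had summit pileups of at most 31 fragments at 0.1 mg/L.

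Where a region and its partner overlapped nothing else, the summits on scaffolds lay closer together than on chromosomes. The median distance between the summits was 39 bp in 328 scaffold pairs (quartiles 13 and 87 bp) and 56 bp in 15390 chromosome pairs (18 and 111 bp). At most 50 bp apart were 183 scaffold pairs (55.8%, 50.2 to 61.2%) and 46.0% of the chromosome pairs (odds ratio 1.48, 1.18 to 1.86, two-sided Fisher's exact test, adjusted p = 0.00092). The summits were at the same base in 7 scaffold pairs, among them that on Niben261Scf10855 at position 584, and more than 200 bp apart in 22. The widest gaps were 612 bp on Niben261Scf14624, 606 bp on Niben261Scf09973 and 446 bp on Niben261Scf00054, where the 0.5 mg/L summits had pileups of 6, 4 and 3 fragments and the 0.1 mg/L summits of 11, 12 and 8 fragments.

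The summit pileup at 0.5 mg/L relative to that at 0.1 mg/L was lower in scaffold pairs than in chromosome pairs. The median ratio was 0.556 in scaffold pairs (quartiles 0.413 and 0.75) and 0.692 in chromosome pairs (0.533 and 0.875). In pairs with a pileup of at least 30 at 0.1 mg/L, a choice by the denominator that favours low ratios on either kind of sequence, it was 0.417 in 59 scaffold pairs (0.311 and 0.556) and 0.713 in 554 chromosome pairs (0.583 and 0.847). These ratios were compared after the values had been seen and are given without a test. The genome-wide background at 0.5 mg/L was 0.230 times that at 0.1 mg/L. Dividing it in each library by the width of the narrowest region, taken as the fragment length, gave a ratio of fragments of 0.317. Which of these ratios suits wide regions was not tested. Pairs were counted against 0.317 alone. Below it lay 40 of the 328 scaffold pairs (12.2%, 8.86 to 16.2%) and 393 of the 15390 chromosome pairs (2.55%, 2.31 to 2.82%). Among the pairs chosen by their pileup at 0.1 mg/L, 16 of 59 on scaffolds (27.1%, 16.4 to 40.3%) and 13 of 554 on chromosomes (2.35%, 1.26 to 3.98%) did. A pair needs a called region at 0.5 mg/L, where the lowest summit pileup was 3 fragments, so low ratios need a high pileup at 0.1 mg/L. The call also depends on the local background, with a 0.5 mg/L median of 0.240 fragments on scaffolds and 0.404 on chromosomes. The part of the call in these shares was not tested.

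The 3 scaffolds of very high background were among the 4 lowest of these 613 chosen pairs. The lowest was a chromosome pair, on Niben261Chr18, with summit pileups of 7 (0.5 mg/L) and 56 (0.1 mg/L) and a ratio of 0.125. Its background at 0.1 mg/L was 3.88 fragments. Niben261Scf10855 had summit pileups of 378 (0.5 mg/L) and 2787 (0.1 mg/L), with a ratio of 0.136. Niben261Scf12068 had 1156 (0.5 mg/L) and 7653 (0.1 mg/L), with a ratio of 0.151. Niben261Scf15077 had 1316 (0.5 mg/L) and 8021 (0.1 mg/L), with a ratio of 0.164. On chromosomes, 5 pairs had a background of at least 100 times the genome-wide level at 0.1 mg/L, and their ratios ran from 0.65 to 0.688. Their backgrounds were not matched to those of the scaffolds, since chromosome regions reached at most 272 times the genome-wide level at 0.1 mg/L, against 261 times on Niben261Scf10855, 409 times on Niben261Scf15077 and 1184 times on Niben261Scf12068. Niben261Scf03392, the strongest scaffold pair outside these 3, had a ratio of 0.77, close to the chromosome pairs. Niben261Scf04103 had 16 fragments at 0.5 mg/L and 88 at 0.1 mg/L, with a ratio of 0.182. Niben261Scf02987 had 6 fragments at 0.5 mg/L and 31 at 0.1 mg/L, with a ratio of 0.194. The backgrounds of these pairs at 0.1 mg/L were 2.32 and 0.996 fragments, against a genome-wide level of 0.747 fragments. Both scaffolds were named after their values were seen, and the part of background in low ratios was not tested.

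**Figure D5:**
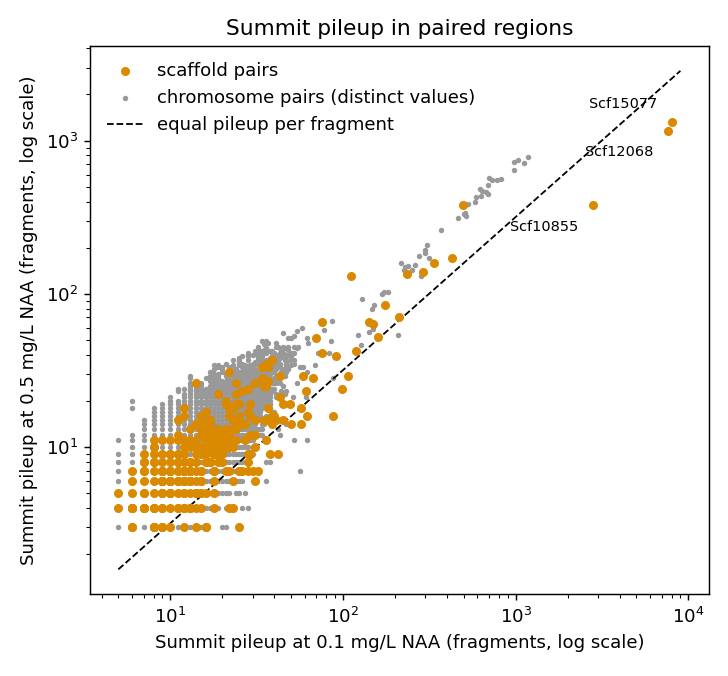
Summit pileup in fragments at 0.5 mg/L NAA (vertical axis) against that at 0.1 mg/L NAA (horizontal axis), both on log scales, for 328 scaffold pairs and the distinct values of the chromosome pairs. The dashed line marks a ratio of 0.317, the estimated ratio of fragments, and the 3 labelled scaffolds lie below it with ratios of 0.136 to 0.164. The genome-wide backgrounds had a ratio of 0.230, and these 3 ratios lie below that as well.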

How the data were processed

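Each ATAC-seq library had a deposited list of accessible regions. Per the study's methods, the authors aligned reads with BWA to the N. benthamiana genome and called regions with MACS2 2.2.7.1 at a q-value limit of 0.05. Each library has its own list, and the submitters' notes also name Trimmomatic 0.39. How reads that match several places, duplicates and organelle reads were treated is not given in the sources used here. The deposited lists hold positions, a score (10 times the −log10 q-value, cut to a whole number), the fold of summit pileup over local background as a ratio with a pseudocount of 1, and the authors' −log10 p-value and −log10 q-value. Read totals were not used here.

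The summit pileup and the local background were solved from the deposited fold and −log10 p-value for 100% of the regions, a step tested on simulated data. Depth is thus known only through the background. Scaffold regions were set against chromosome regions within a list by two-sided Fisher's exact tests, with Benjamini-Hochberg adjustment over 11 tests (Python 3.11.15, SciPy 1.17.1). Intervals are 95% Clopper-Pearson intervals over regions, and cover counting error alone. Coordinates are those of Niben261, counted from 1. Named were, per list, the 5 scaffolds with most regions, the 10 strongest, the 5 strongest unshared and the 5 widest scaffold regions, the 3 of highest background, and the 3 pairs with the widest summit gap. Members, lists and tests were chosen with earlier results of these data known. Alternatives were q-value limits, a minimum width, equal numbers, other overlap rules, and leaving out scaffolds or regions. No sequence of Niben261 was used, so gene features were not analysed here.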

Additional observations from a re-analysis of the deposited data

Results flagged for a closer look

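The share of regions with a partner in the other list differed between scaffolds and chromosomes in opposite directions at the 0.5 and 0.1 mg/L concentrations. The scaffold share minus the chromosome share was 9.69 percentage points in the 0.5 mg/L list and -6.03 percentage points in the 0.1 mg/L list. Each difference passed its own exact test, but the difference between the lists was not tested, since each concentration has 1 library and a shared pair counts in both lists. The differences are not independent, since the number of regions at 0.5 mg/L was 0.589 times that at 0.1 mg/L on scaffolds and 0.811 times on chromosomes. The lists also differed in depth and in the share of scaffold regions at the genome-wide background, which was 31.9% at 0.5 mg/L and 53.8% at 0.1 mg/L.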

How the results depend on the processing

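Over 18 alternatives 130 values were computed again, and 108 kept their direction and their side of the threshold or stayed within their interval. No paired analysis was possible because there is 1 library per NAA concentration. The cause of the changes below was not tested, and differences are scaffold minus chromosome percent. Sharing at 0.1 mg/L (-6.03 as reported) was -2.03 with summits within 100 bp, 2.31 without regions of a background of at least 2 times the genome-wide level, and 8.55 with only regions at that level, a setting added after the data were seen. Under that added setting the 0.5 mg/L differences in width and fold passed the threshold (7.71 and 13.5). The 0.5 mg/L width difference (0.917 as reported) also passed it at q-values under 1e-05 (6.58), with a minimum width of 207 bp in both lists (6.53) and without regions of a background of at least 2 times (6.37). The 0.1 mg/L width difference was 2.51 without regions starting within 1 kb. The summit position difference turned to 0.794 (0.5 mg/L) and 1.42 (0.1 mg/L) at q-values under 0.001, and to 1.90 (0.5 mg/L) and 5.69 (0.1 mg/L) under 1e-05. The background difference turned to 0.808 (0.5 mg/L) and 4.08 (0.1 mg/L) at 5 times the genome-wide level, and to 3.28 (0.5 mg/L) and 1.14 (0.1 mg/L) at 10 times, since these count another end of the range. The scaffold share of the 0.1 mg/L list was 2.84% at q-values under 0.001, 2.99% under 1e-05 and 2.72% by covered bases. At q-values under 1e-05, 296 scaffolds held a region at 0.5 mg/L, against 363 at 0.1 mg/L. The low pileups, with medians of 7 and 9 fragments on scaffolds at 0.5 and 0.1 mg/L, limit what a missing partner can show.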
